A study of Mus musculus with 24 samples.

Results

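The effect of trisomy was examined in adult offspring whose mothers had eaten a choline-enriched diet, by comparing trisomic (Ts65Dn) with disomic (2N) mice within that diet. The comparison was formed from sample titles alone, and it holds 12 of the 24 libraries of the series: 8 titled as treated Ts65Dn and 4 titled as treated 2N. Ts65Dn mice carry an extra freely segregating chromosome with distal mouse chromosome 16 and a proximal piece of chromosome 17, and are a widely used model of Down syndrome. In the 8 Ts65Dn supplemented mice, the segment was present in 3 copies throughout the body, and the mother received chow with 5.0 g/kg choline chloride from embryonic day 0 to postnatal day 21. The 4 2N supplemented mice had the same maternal chow and lack the extra chromosome. The remaining libraries, 6 Ts65Dn and 6 2N mice of mothers on chow with 1.1 g/kg choline chloride, shared the estimate of variation and served only to compare the genotype effect between diets. All were males, returned to control chow after weaning and studied at about 6 months. Breeding pairs were Ts65Dn females and F1 hybrid males of the C57Bl/6J Eicher and C3H/HeSnJ strains, so the mothers were themselves trisomic and the background was mixed. The series description gives 6 mice per genotype and diet, whereas the titles give 8 and 4. No label names litters, so p-values measure the spread between mice and leave out that pups of 1 dam share their prenatal diet.

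Each library holds RNA of about 500 neurons cut by laser from 20 µm frozen sections through the medial septal nucleus and the diagonal band's vertical limb, after staining for choline acetyltransferase. These basal forebrain cholinergic neurons send acetylcholine to the hippocampus and cortex, depend on nerve growth factor, and degenerate in Down syndrome and in Alzheimer's disease. Choline is the precursor of acetylcholine, of phosphatidylcholine and, through betaine, of methyl groups. A triplicated gene is transcribed from an additional copy, so the simplest expectation for its RNA is a level 1.5 times that of 2N cells. Total RNA was made into stranded libraries, so that noncoding RNAs are read beside mRNAs. Small nucleolar RNAs (snoRNAs) lie in introns of host genes and guide chemical changes of ribosomal RNA: the box C/D class guides methylation of the ribose, and the box H/ACA class guides pseudouridylation. Bc1 is a rodent RNA made by RNA polymerase III, carried into dendrites, and known as a repressor of translation. RNase P RNA and RNase MRP RNA are the catalytic RNAs of the enzymes that mature tRNA and ribosomal RNA precursors.

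Many of the RNAs that differed between the genotypes are short, and 4 of the loci described here are shown as GENCODE M21 (GRCm38) gives them, because their length and overlaps bear on how reads were assigned. Bc1 (chr7:144914470-144914637, plus strand, 168 bases) is an intergenic transcript, and capitals mark its longest run of A, at positions 77 to 99. Snord15a (chr7:99482785-99482932, minus strand) lies in an intron of Rps3 and Snord21 (chr5:107904555-107904648, plus strand) in an intron of Rpl5, each on the strand of its host. In these 2 snoRNAs, capitals mark the first TGATGA, the core of the C box, and the last CTGA, the D box. Searched on the transcript strand only, TGATGA followed by CTGA was found in 24.0% of the 1507 snoRNA transcripts of GENCODE M21, and the letters describe these sequences without locating a working site. Rmrp, the RNase MRP RNA, is annotated as a longer model of 281 bases (chr4:43492783-43493063, minus strand), which holds a shorter model of 271 bases whole, and capitals mark the 10 bases outside the shorter model.
Bc1: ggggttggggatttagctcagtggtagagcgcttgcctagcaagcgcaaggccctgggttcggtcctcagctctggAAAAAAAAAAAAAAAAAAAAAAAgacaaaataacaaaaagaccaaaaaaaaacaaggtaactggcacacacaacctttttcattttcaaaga
Snord15a: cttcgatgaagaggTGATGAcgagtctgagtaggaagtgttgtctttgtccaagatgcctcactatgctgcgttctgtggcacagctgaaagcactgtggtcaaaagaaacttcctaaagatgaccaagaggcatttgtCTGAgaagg
Snord21: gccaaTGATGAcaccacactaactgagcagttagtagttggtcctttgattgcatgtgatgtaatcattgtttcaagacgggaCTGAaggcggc
Rmrp: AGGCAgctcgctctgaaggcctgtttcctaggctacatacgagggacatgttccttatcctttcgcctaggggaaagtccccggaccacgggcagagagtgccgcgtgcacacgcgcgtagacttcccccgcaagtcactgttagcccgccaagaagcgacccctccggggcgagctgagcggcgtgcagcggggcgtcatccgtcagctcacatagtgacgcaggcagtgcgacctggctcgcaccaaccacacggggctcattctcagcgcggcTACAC

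Library totals were 5053164 to 11255850 counts in the 8 Ts65Dn libraries and 8232620 to 13443457 counts in the 4 2N libraries, with 13141 to 22593 and 15294 to 20019 genes detected. Levels are given in CPM, with library size scaled by the trimmed mean of M-values. Chat, the gene of the stained enzyme, was at 5.37, 53.6, 4.69, 10.01, 40.7, 8.96, 0.565 and 1.46 CPM in Ts65Dn libraries 1 to 8, and at 37.4, 54.1, 0.563 and 10.7 CPM in 2N libraries 1 to 4, so that Ts65Dn library 7 and 2N library 3 lay under 1 CPM. No difference in total counts, genes detected, mitochondrial rRNA share or Chat passed adjustment (exact permutation tests, two-sided, lowest adjusted p = 0.178 over 4 measures). That lowest value was for the mitochondrial rRNA share, at a mean of 30.7% in Ts65Dn and 20.3% in 2N libraries (unadjusted p = 0.0444). With 4 2N libraries, this does not show that the share was alike in the genotypes. Xist, silent in male cells, had 164 counts in 2N library 2 and 25 in Ts65Dn library 8, and the Y-linked Kdm5d had at least 67 counts in each of the 12. Ts65Dn libraries 2 and 5 stood apart from the other 6 in small RNAs, and in the deposited table their columns stand among the 2N supplemented columns. Their titles and genotype labels say Ts65Dn, they were kept as such, and the named calls are given with and without them. Because these libraries were set apart for their low small RNAs, calls made without them describe the other 6 and add no support.

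Across 19967 tested genes, 33 passed an adjusted p of 0.05 as higher in Ts65Dn (0.165% of those tested) and 3 as lower (0.015%), and 1894 had an unadjusted p under 0.05 (9.49%), 1396 of them higher (6.99%) and 498 lower (2.49%). No called gene was annotated as protein-coding. Of the 33 that rose, 9 are snoRNA genes, 17 are identifiers outside GENCODE M21, and the others are 2 long intergenic RNAs, a snRNA, a ribozyme RNA, a mitochondrial rRNA, a processed pseudogene and an unconfirmed locus. The 3 that fell are the shorter Rmrp model, the mitochondrial tRNA gene mt-Tq and an unannotated identifier. In 32 of the 33 that rose, the 6 Ts65Dn libraries other than 2 and 5 all lay above every 2N library. All 8 did so in 6, against 0.195% of all tested genes, and libraries 2 and 5 both lay within or below the 2N range in 18. These counts describe genes called in this same comparison, and the 6 libraries were grouped by their small RNAs. No share of all tested genes is given for the 32 or the 18, so neither count is a test. Without libraries 2 and 5, 106 genes were called higher (0.543%) and 44 lower (0.225%), 0.768% together, and these held all 36 calls made with them. The calls also rested on few 2N libraries: leaving out 2N library 1, 2, 3 or 4 left edgeR with 0, 5, 1 or 3 calls, with 1802 genes at an unadjusted p under 0.05 without library 1. Leaving out 1 Ts65Dn library left 15 calls (without library 6) to 72 calls (without library 2). Without the libraries with Chat under 1 CPM, Ts65Dn 7 and 2N 3, edgeR made no call (1944 genes at an unadjusted p under 0.05). Fitting the 2 groups alone gave 88 higher (0.541%) and 3 lower (0.0184%), 0.56% together.

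Bc1 rose in Ts65Dn. Its level was 15.2 and 51.0 CPM in Ts65Dn libraries 2 and 5 and 2834 to 11689 CPM in the other 6, with a median of 3998 CPM over all 8, against 15.4, 21.4, 11.5 and 23.7 CPM in the 2N libraries. The 6 high libraries thus formed a group of their own, library 5 lay slightly above the 2N range and library 2 lay within it. The log2 fold change was 7.81 (SE 1.55, adjusted p = 0.0229). Without libraries 2 and 5 it was 8.22 (adjusted p = 0.000554), a description, since these were set apart for their low small RNAs. Leaving out 1 library at a time gave adjusted p from 0.00467 to 0.113, over the threshold in 4 of 12 fits. By limma-voom Bc1 was not called (log2 fold change 4.57, adjusted p = 0.971), and by DESeq2 it was (adjusted p = 3.17e-07). On the control diet, Bc1 was at 15442 CPM in Ts65Dn library 3 and 22.8 to 97.4 CPM in the other 5, against 8.31 to 38.5 CPM in the 6 2N libraries. The fitted genotype difference of 6.87 on that diet (adjusted p = 0.00769) includes that library and was not refitted without it. The 2 diets' genotype effects were not shown to differ (interaction adjusted p = 0.983). In the list of 11 abundant small RNAs that holds Bc1 with the RNase P and MRP, signal recognition and vault RNAs, 7 gene models were tested, of which 2 were called higher and 1 lower (against 0.165% and 0.015% of all tested genes).

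The 6 named snoRNAs also rose: the box C/D RNAs Snord15a, Snord21, Snord22 and Snord55, and the box H/ACA RNAs Snora74a and Snora81. Snord15a, which targets 28S rRNA, was at 2.43 and 0 CPM in Ts65Dn libraries 2 and 5 and 150.5 to 330.5 CPM in the other 6, with a median of 159.9 CPM over 8, against 2.15, 2.81, 2.53 and 1.16 CPM in 2N libraries. Its log2 fold change was 6.13 (SE 1.27, adjusted p = 0.0229). Snord21 was at 0 CPM in Ts65Dn libraries 2 and 5 and 170.0 to 728 CPM in the other 6, against 1.43, 0, 0.375 and 0 CPM in 2N libraries. Its log2 fold change was 9.22 (SE 2.00, adjusted p = 0.0298). For Snord15a and Snord21, Ts65Dn libraries 2 and 5 thus lay within the 2N range or at 0. Leaving out 1 library, the adjusted p missed the threshold in 4 of 12 fits for Snord15a and in 7 for Snord21, with the highest at 0.128 and 0.154.

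Snord55 lay at 0.335 and 0.342 CPM in Ts65Dn libraries 2 and 5 and 19.8 to 106 CPM in the other 6, against 0.287, 0, 0.0939 and 0.0773 CPM in 2N libraries. Its log2 fold change was 8.20 (SE 1.70, adjusted p = 0.0229). Snord22, an intronic product of Snhg1, lay at 5.11 and 5.48 CPM in libraries 2 and 5 and 116 to 272 CPM in the other 6, against 0.645, 1.35, 1.97 and 0.464 CPM in 2N libraries. The log2 fold change of Snord22 was 6.99 (SE 1.504, adjusted p = 0.0298). For both RNAs all 8 Ts65Dn libraries lay above all 2N libraries, although libraries 2 and 5 held only a few counts for Snord55. Snora81 had no count in any 2N library or in Ts65Dn libraries 2 and 5, and 11.7 to 67.0 CPM in the other 6. It was at least 457-fold higher in Ts65Dn when the 2N group is set to 3 counts (adjusted p = 0.038). It is an intronic RNA of Eif4a2 on chromosome 16, outside the listed triplicated genes. Snora74a, also without a count in 2N libraries, was at 9.81 and 0 CPM in libraries 2 and 5 and 53.6 to 272 CPM in the other 6, at least 1053-fold higher (adjusted p = 0.0229). Leaving out 1 library, the adjusted p missed 0.05 in 5 of 12 fits for Snord55, 6 for Snord22, 9 for Snora81 and 4 for Snora74a, with highest values of 0.128, 0.154, 0.154 and 0.113. Without Ts65Dn libraries 2 and 5, all 6 stayed called, at adjusted p from 0.000136 (Snord15a) to 0.00242 (Snord22). That fit is a description, since those libraries were set apart for their low small RNAs. DESeq2 called all 6 with all libraries (highest adjusted p = 0.00091, Snora81). By limma-voom none was called, at adjusted p from 0.108 (Snora74a) to 0.709 (Snord15a).

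**Figure D1:**
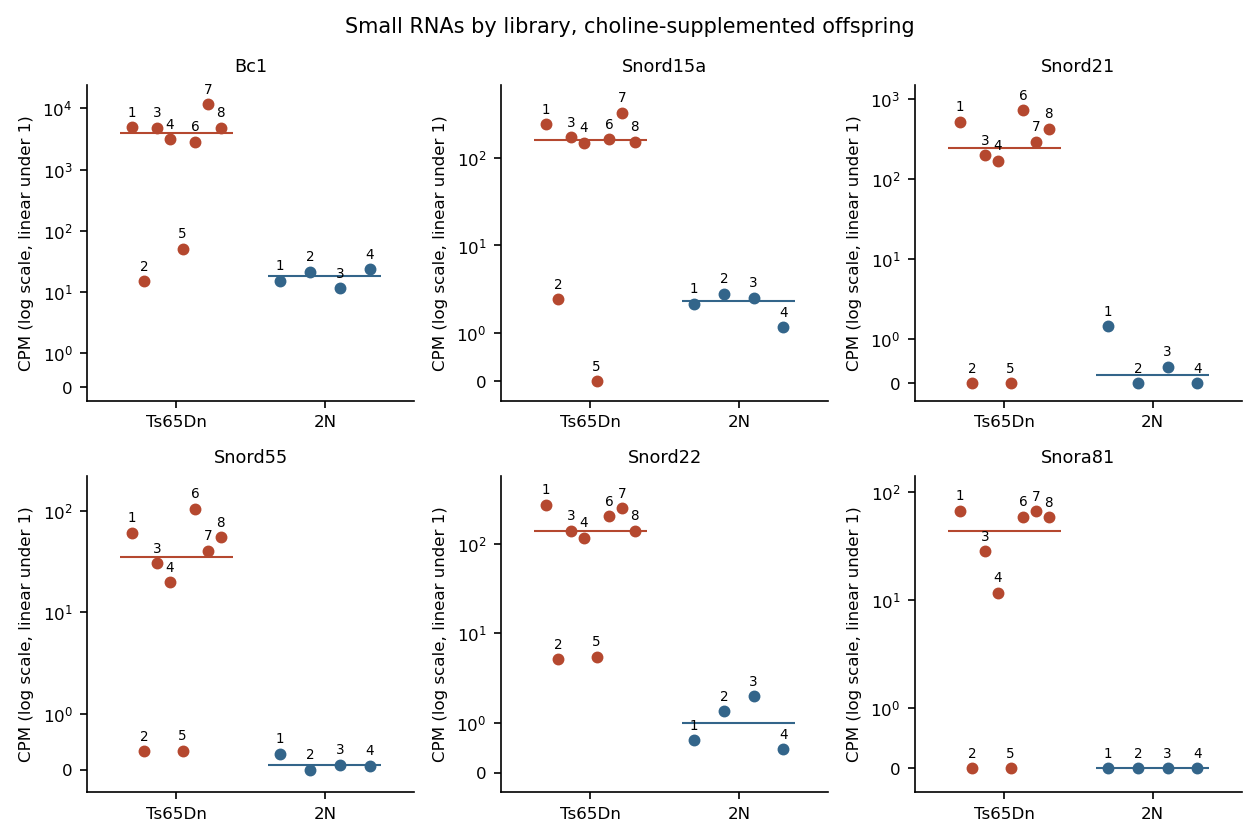
CPM of 6 small RNAs by library (log axis, linear under 1 CPM), with Ts65Dn left and 2N right, numbers giving the library and lines the group medians. Ts65Dn libraries 1, 3, 4, 6, 7 and 8 lie far above the 2N libraries, with Bc1 at 2834 to 11689 CPM, whereas Ts65Dn libraries 2 and 5 lie at or near the 2N values.

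Most snoRNA genes had values in the same direction. Of 170 tested snoRNA genes, 165 had a positive fitted value, 9 were called higher and none lower, and the median log2 fold change was 5.36, against 0.086 over all tested genes. With the 43 of them that had no count in 2N libraries set to their lower bound, it was 4.83. The filter on low counts kept 170 of 1065 snoRNA genes, and a gene could pass it through the Ts65Dn libraries alone. The direction counts and medians in this paragraph are therefore partly set by the filter, bounds included, and are given as a description. By symbol, 4 of 49 box C/D RNAs and 2 of 29 box H/ACA RNAs were called higher, with medians of 5.11 and 6.71, or 4.17 and 5.84 with such bounds. The Cajal body RNAs that guide changes of spliceosomal RNAs had 11 of 11 positive values, a median of 2.81 and no call. Small nucleolar RNA host genes named Snhg had 8 of 9 positive values, a median of only 0.60 and no call. Summed over all snoRNA genes, their share of counts was 0.0294% and 0.0474% in Ts65Dn libraries 2 and 5 and 0.405% to 0.800% in the other 6, against 0.0276% to 0.0424% in the 4 2N libraries. Identifiers outside GENCODE M21 had 200 of 250 positive values and a median of 3.82, or 3.60 with bounds. Of these, ENSMUSG00000119764 was called higher, with 9.89 and 0.513 CPM in Ts65Dn libraries 2 and 5 and 70.5 to 273 CPM in the other 6, against 0, 0.416, 0 and 0 CPM in 2N libraries. ENSMUSG00002075987, which was called lower, had no count in Ts65Dn and 0, 4.89, 39.5 and 0 CPM in 2N libraries, so that its call rests on 2 libraries. Of the 36 calls, 9 unannotated identifiers fell into 3 sets with identical counts, and each set is counted here as 3 although it may be a single signal divided among copies.

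The host genes of these snoRNAs did not rise with them. Rps3, a protein of the small ribosomal subunit whose introns hold Snord15a and Snord15b, was at 385 and 1856 CPM in Ts65Dn libraries 2 and 5 and 29.3 to 60.8 CPM in the other 6, against 605, 1117, 431 and 437 CPM in 2N libraries. The summed Snord15a and Snord15b level was 2.43 and 0 CPM in Ts65Dn libraries 2 and 5 and 2024 to 4384 CPM in the other 6, against 1.16 to 21.6 CPM in 2N libraries. Each library was therefore high in the host or in its intronic RNAs, and in none were both high. Host and intronic RNAs together gave 387 and 1856 CPM in Ts65Dn libraries 2 and 5 and 2054 to 4444 CPM in the other 6, against 439 to 1122 CPM in 2N libraries. At this locus, which was chosen after its values were seen, the 6 libraries lay above all 2N libraries in the sum. Sums for other hosts are given below.

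Rpl5, a protein of the large subunit and host of Snord21, lay at 68.7 and 188 CPM in Ts65Dn libraries 2 and 5 and 4.58 to 18.1 CPM in the other 6, against 84.7, 121, 69.1 and 87.9 CPM in 2N libraries, the reverse of Snord21. With all 8 libraries the log2 fold changes of Rps3 and Rpl5 were -1.02 and -1.11, and neither was called. Without libraries 2 and 5 they were -3.67 and -2.79, given as a description, since those libraries were set apart for their low small RNAs and the hosts were chosen after their values were seen. Gas5, a noncoding host of Snord47 and others, was at 71.6 and 133 CPM in libraries 2 and 5 and 62.6, 49.7, 70.8, 120.3, 18.1 and 65.6 CPM in libraries 1, 3, 4, 6, 7 and 8, against 78.3 to 133 CPM in 2N libraries, so that 5 of those 6 and library 2 lay below all 2N libraries. The ranges of other hosts overlapped too: Nop56 ranged from 35.4 to 150.4 CPM in Ts65Dn, against 94.1 to 210.1 CPM in 2N libraries. Eif4a2 ranged from 45.5 to 235 CPM in Ts65Dn, against 58.3 to 163 CPM in 2N libraries. Snhg1 ranged from 13.0 to 57.9 CPM, against 21.0 to 37.3 CPM. With intronic RNAs added to the host, those 6 libraries lay above all 2N libraries for Rpl5, Snhg1 and Gas5. For Eif4a2, Ts65Dn libraries 7 and 8 (130 and 152 CPM) lay below the highest 2N sum of 163 CPM. For Nop56, Ts65Dn libraries 4 and 7 (188 and 193 CPM) lay below the highest 2N sum of 210 CPM. Reads that overlap a host model and an intronic RNA can be divided between them in the counting, and the part of that division in these differences was not tested.

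**Figure D2:**
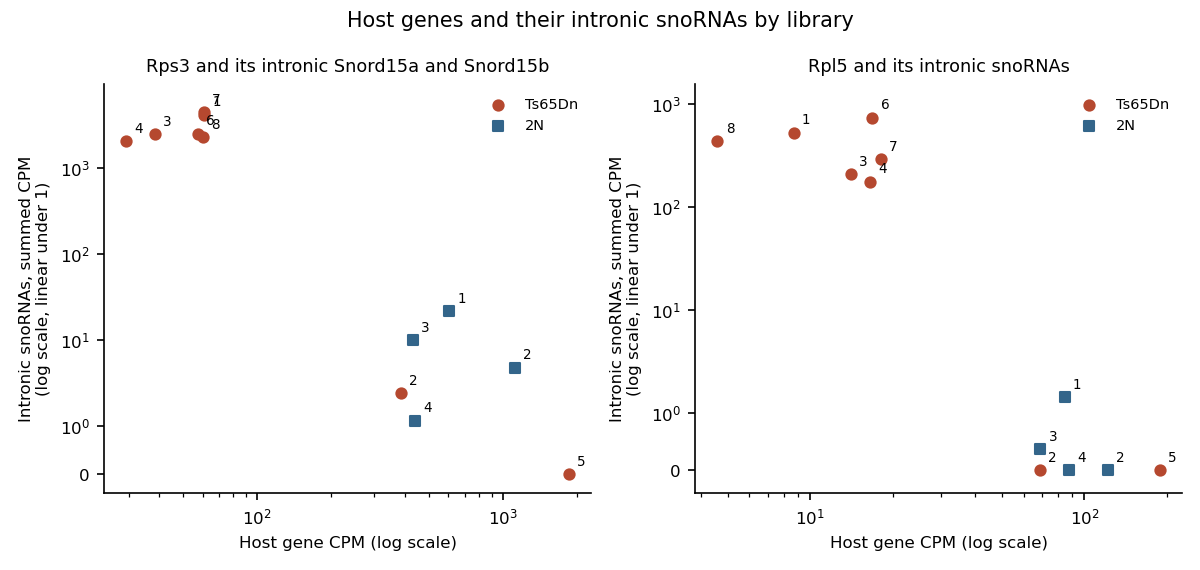
Summed CPM of intronic snoRNAs against CPM of the host gene, for Rps3 and Rpl5, by library (circles Ts65Dn, squares 2N, numbers giving the library, log axes). Ts65Dn libraries 2 and 5 lie with the 2N libraries at the lower right, and the other 6 at the upper left.

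Rmrp was called lower in its shorter model, with no count in any Ts65Dn library and 95.3, 26.4, 39.8 and 20.2 CPM in the 2N libraries, at least 997-fold lower with Ts65Dn set to 3 counts (adjusted p = 0.0168). The longer model went the other way, with 36.8 and 59.9 CPM in Ts65Dn libraries 2 and 5 and 205 to 417 CPM in the other 6, against 0, 28.8, 0 and 0 CPM in 2N libraries (log2 fold change 5.13, adjusted p = 0.0998, not called). As the sequence shown earlier makes plain, the models differ by 5 bases at each end, so reads of 50 bases seldom tell them apart. Their sum was 36.8 and 59.9 CPM in Ts65Dn libraries 2 and 5 and 205 to 417 CPM in the other 6, against 95.3, 55.3, 39.8 and 20.2 CPM in 2N libraries. For the locus as a whole, Ts65Dn averaged 250.2 ± 143 CPM (SD, n = 8) and 2N 52.6 ± 31.8 CPM (SD, n = 4; exact two-sided permutation test, adjusted p = 0.0323 over 2 families). Both families hold a model called in this same comparison, so this p adds no independent support. The shorter model missed the threshold on leaving out 1 library in 1 of 12 fits, and without Ts65Dn libraries 2 and 5 it was called (adjusted p = 0.00538). The fall of the shorter model is therefore uncertain as a change of the RNA.

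RNase P RNA gave a like picture. Rprl2, a gene similar in sequence to the RNase P RNA gene Rpph1, was at 862, 0, 1359.7, 565, 0.0856, 661, 1605 and 0 CPM in Ts65Dn libraries 1 to 8, against 0, 0.104, 0 and 2.55 CPM in 2N libraries. The log2 fold change of Rprl2 was 9.82 (SE 1.83, adjusted p = 0.0193). As a description, it was 10.23 without libraries 2 and 5 (adjusted p = 3.71e-05), which were set apart for their low small RNAs. Leaving out 1 library, the adjusted p missed 0.05 in 3 of 12 fits. DESeq2 called Rprl2 (adjusted p = 1.41e-05) and limma-voom did not (adjusted p = 0.8). Ts65Dn library 8 had none of Rprl2 but 1989 CPM of Rpph1, and the 2 sequences are identical in 76.6% of 320 aligned columns, so Rprl2 alone is uncertain. Rpph1 and the similar genes, 5 models in all, together averaged 1585 ± 1195 CPM in Ts65Dn (SD, n = 8) and 129.6 ± 82.6 CPM in 2N libraries (SD, n = 4; exact two-sided permutation test, adjusted p = 0.0323). The sum holds Rprl2, called in this same comparison, and Rpph1, chosen after its values were seen. Its p therefore adds no independent support. Ts65Dn libraries 2 and 5 had 167 and 182 CPM of this sum, within the 2N range of 37.8 to 206 CPM.

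Of the 2 rRNAs of the mitochondrial ribosome, mt-Rnr2 rose and mt-Rnr1 was not called. mt-Rnr2, the large-subunit rRNA, was at 107305 and 150096 CPM in Ts65Dn libraries 2 and 5 and 241283 to 538346 CPM in the other 6, against 152433, 133905, 152406 and 119206 CPM in 2N libraries. For mt-Rnr2 the log2 fold change was 1.08 (SE 0.25, adjusted p = 0.0448), and it was 1.33 (adjusted p = 0.000136) without libraries 2 and 5. mt-Rnr1, the small-subunit rRNA, had overlapping groups, with a lowest of 46229, a median of 61924 and a highest of 85162 CPM in Ts65Dn and 50108, 32657, 63109.8 and 38401 CPM in 2N libraries (log2 fold change 0.46, SE 0.23, unadjusted p = 0.0494, adjusted p = 0.525). mt-Tq, the mitochondrial glutamine tRNA, fell, with a lowest of 22.3, a median of 92.3 and a highest of 275 CPM in Ts65Dn and 794, 124, 861 and 499.9 CPM in 2N libraries. For mt-Tq the log2 fold change was -2.29 (SE 0.53, adjusted p = 0.0448). On leaving out 1 library, the adjusted p missed 0.05 in 9 of 12 fits for mt-Rnr2 (highest 0.198) and in 8 for mt-Tq (highest 0.231). Without Ts65Dn libraries 2 and 5, mt-Tq was at -2.80 (adjusted p = 0.00417). Neither DESeq2 nor limma-voom called mt-Rnr2 (adjusted p = 0.0805 and 0.0896) or mt-Tq (adjusted p = 0.067 and 0.229). mt-Tq overlaps mt-Ti on the opposite strand, and whether strand was used in counting is not given in the sources used here.

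Of the 11 tested mRNAs of the mitochondrial genome, which encode subunits of the respiratory chain, 10 had positive values with a median log2 fold change of 0.85, and none was called. On the control diet 0 of these were positive, with a median of -0.88, and none was called in the interaction. mt-Nd6, a complex I subunit, came closest, with a lowest of 644, a median of 1335 and a highest of 2098 CPM in Ts65Dn and 729.6, 333, 637 and 570.2 CPM in 2N libraries (log2 fold change 1.13, SE 0.28, adjusted p = 0.0781). No 2N library reached the Ts65Dn median, but mt-Nd5 overlaps it on the other strand. mt-Atp6, an ATP synthase subunit, is listed at 0 in 3 of the 8 Ts65Dn and 3 of the 4 2N libraries, which cannot be read as absence of so abundant an RNA (log2 fold change 6.74, adjusted p = 0.201). The share of counts in mitochondrial rRNA was 17.8% and 21.1% in Ts65Dn libraries 2 and 5 and 29.0% to 43.3% in the other 6, against 18.1% to 22.6% in the 4 2N libraries, so it moved with the small RNAs. With this share as a covariate edgeR called no gene (1157 at an unadjusted p under 0.05). In that fit the log2 fold change was 2.03 for Bc1, 2.25 for Snord15a, 4.39 for Snord21 and 7.12 for Rprl2. mt-Rnr2 itself makes up most of the share, so its value of -0.056 there follows from the covariate. With the 2 rRNAs left out of the table, 34 genes were called, 34 of them among the 36. The part of the rRNA share in the small RNA difference was not tested beyond these fits.

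**Figure D3:**
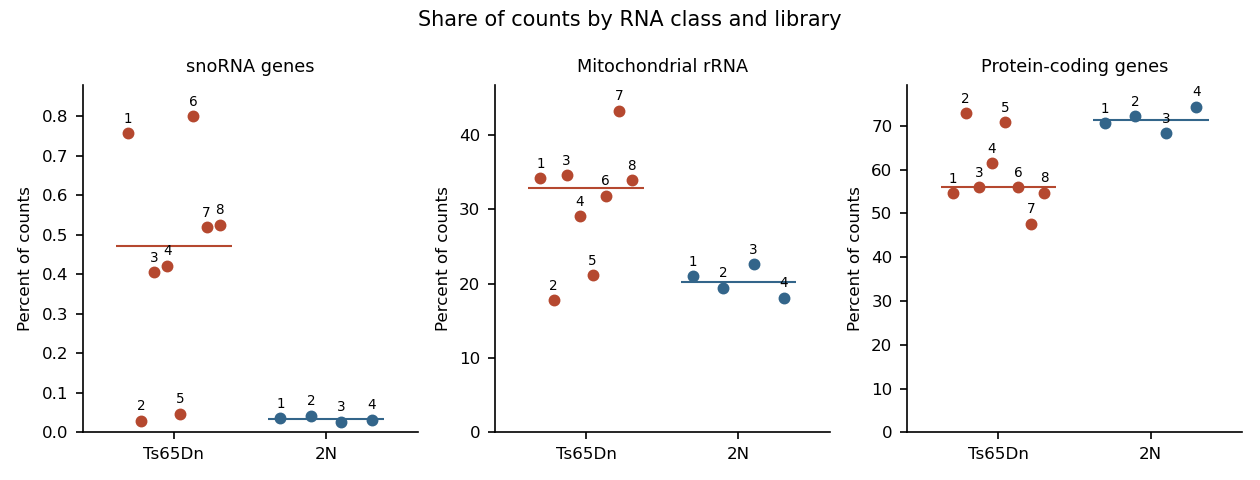
Percent of each library's counts in snoRNA genes, mitochondrial rRNA and protein-coding genes, with Ts65Dn left and 2N right, numbers giving the library and lines the medians. Ts65Dn libraries 2 and 5 lie at or near 2N values in all 3 panels, and the other 6 are higher in snoRNA and mitochondrial rRNA and lower in protein-coding counts.

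Among 14420 tested protein-coding genes, edgeR called 0. At an unadjusted p under 0.05, 591 were higher (4.10%) and 291 lower (2.02%), below the 6.99% and 2.49% of all tested genes. Over all genes DESeq2 called 373 higher (1.87%) and 36 lower (0.18%), 2.05% together, and limma-voom 24 (0.12%) and 31 (0.155%), 0.275% together. Of the protein-coding genes, DESeq2 called 109 higher and 12 lower, and limma-voom 4 and 12. The values nearest to a call are given as levels. On the higher side, Ripor2, a regulator of RhoA, had a lowest of 13.9, a median of 77.8 and a highest of 293 CPM in Ts65Dn, against 13.3, 22.5, 34.7 and 23.6 CPM in 2N libraries (log2 fold change 2.12, SE 0.51, adjusted p = 0.0608). Paxbp1, a triplicated gene whose product binds PAX3 and PAX7 proteins, had a lowest of 117, a median of 185 and a highest of 287 CPM in Ts65Dn, against 114, 82.6, 49.0 and 71.0 CPM in 2N libraries (log2 fold change 1.32, SE 0.33, adjusted p = 0.0891). Its groups did not overlap. Son, a triplicated splicing cofactor, had a lowest of 629.9, a median of 787 and a highest of 1020.3 CPM in Ts65Dn, against 358, 469, 647 and 441 CPM in 2N libraries (log2 fold change 0.75, SE 0.20, adjusted p = 0.114), and only 2N library 3 reached the lowest Ts65Dn value. Npcd had no count in 2N libraries and in Ts65Dn libraries 2 and 7, and 10.2 to 52.3 CPM in the other 6 (adjusted p = 0.105). Npcd overlaps Nptxr on the same strand, which was at a lowest of 55.9, a median of 71.1 and a highest of 124 CPM in Ts65Dn and 136, 106, 86.6 and 116 CPM in 2N libraries. Its reads are uncertain, as are those of St6galnac2 (log2 fold change 5.38, adjusted p = 0.137), which has 2 overlapping models.

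On the lower side, Tpt1, a translationally controlled growth protein, had a lowest of 21.1, a median of 42.5 and a highest of 80.1 CPM in Ts65Dn, against 166, 83.2, 129.7 and 108 CPM in 2N libraries (log2 fold change -1.53, SE 0.36, adjusted p = 0.0583). Kif3a, a kinesin motor of axonal and ciliary transport, had a lowest of 95.3, a median of 138 and a highest of 179 CPM in Ts65Dn, against 332, 236, 223 and 236 CPM in 2N libraries (log2 fold change -0.90, SE 0.23, adjusted p = 0.0918). In both, every Ts65Dn library lay below every 2N library, which held for 0.411% of all tested genes. Ubb, a polyubiquitin gene, had a lowest of 223, a median of 381 and a highest of 542 CPM in Ts65Dn, against 630.2, 466, 756 and 958 CPM in 2N libraries (log2 fold change -0.90, SE 0.23, adjusted p = 0.104). Penk, the enkephalin precursor, had a lowest of 24.2, a median of 96.7 and a highest of 137 CPM in Ts65Dn, against 288, 174, 321 and 160.5 CPM in 2N libraries (log2 fold change -1.34, SE 0.39, adjusted p = 0.21). Tmed2 and Chmp3, of vesicle transport and endosomal sorting, had log2 fold changes of -1.62 and -1.54 (adjusted p = 0.21 and 0.214), and in Chmp3 the groups did not overlap.

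Without Ts65Dn libraries 2 and 5, 15 protein-coding genes were called higher and 26 lower, a choice of libraries made after seeing the data. Among the genes named above, the log2 fold change in this fit was 2.21 for Ripor2 (adjusted p = 0.0244), 1.48 for Paxbp1 (adjusted p = 0.0136) and 1.34 for mt-Nd6 (adjusted p = 0.0032), which were called higher. It was -1.81 for Tpt1 (adjusted p = 0.00554), -0.95 for Kif3a (adjusted p = 0.0363), -1.12 for Ubb (adjusted p = 0.00516), -2.31 for Tmed2 (adjusted p = 0.0046) and -1.99 for Chmp3 (adjusted p = 0.0215), which were called lower. Npcd was also called higher (adjusted p = 0.0369), whereas Son and Penk were not (adjusted p = 0.0692 and 0.0895). Tatdn1, a deoxyribonuclease gene, had the smallest p among them and showed the plainest split, with 7009.6 and 8457 CPM in Ts65Dn libraries 2 and 5 and 2.84 to 259.5 CPM in the other 6, against 6230.1, 4160.1, 5359 and 7007 CPM in 2N libraries. Its log2 fold change was -5.25 (adjusted p = 5.82e-06) without the 2 libraries and -1.48 (adjusted p = 0.672) with them. Of 34 synaptic vesicle genes, 2 were called lower in this fit (against 0.225% of all tested genes) and 13 had positive values. Snap25, of the vesicle fusion complex, was at 1034 and 979 CPM in libraries 2 and 5 and 340.1 to 626 CPM in the other 6, against 1087, 929, 766 and 1289.8 CPM in 2N libraries, or -1.09 (adjusted p = 0.00622) on the log2 scale without the 2. In the same fit Syt1, the calcium sensor of release, had -0.83 on the log2 scale (adjusted p = 0.0214) and Calm2, a calmodulin gene, -1.11 (adjusted p = 0.0114). With all 8 libraries Syt1 was not called (adjusted p = 0.293). Apoe, a lipid carrier made mainly by astrocytes, had a value of -0.82 (adjusted p = 0.0348) and Actg1, a cytoskeletal actin, -1.17 (adjusted p = 0.0145). Lars2, the mitochondrial leucyl-tRNA synthetase, was at 3023 and 5935 CPM in libraries 2 and 5 and 5767 to 13846 CPM in the other 6, against 4202, 3647, 3039 and 3230.2 CPM in 2N libraries. Its log2 fold change without the 2 libraries was 1.40 (adjusted p = 0.0278), which describes the other 6. With all 8 libraries Lars2 had 1.201 (SE 0.35, adjusted p = 0.207) and was not called.

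The triplicated genes on chromosome 16 had 61 of 76 positive values and a median log2 fold change of 0.62, against 0.086 over all tested genes. None was called, while 15 were higher and 0 lower at an unadjusted p under 0.05 (against 6.99% and 2.49% of all tested genes), and DESeq2 called 5 higher. The 30 most abundant of them had 29 positive values and a median of 0.60, and the other 46 had 32 and 0.63. Genes of the triplicated piece of chromosome 17 had 22 of 29 positive values and a median of 0.57. Brwd1, a chromatin reader on chromosome 16, had a lowest of 267, a median of 314 and a highest of 447 CPM in Ts65Dn, against 191, 189, 209 and 166 CPM in 2N libraries, with no overlap (log2 fold change 0.83, SE 0.25, unadjusted p = 0.00184, adjusted p = 0.237). Of all tested genes, 0.195% were higher without overlap. App, the amyloid precursor, had a lowest of 3021, a median of 3574 and a highest of 4140.0 CPM in Ts65Dn, against 3215, 2213, 3142 and 2606 CPM in 2N libraries (log2 fold change 0.34, SE 0.17, unadjusted p = 0.0454, adjusted p = 0.509). Sod1, a superoxide dismutase, Dyrk1a, a kinase, and Rcan1, an inhibitor of calcineurin, were not called, at 0.52 ± 0.47, 0.23 ± 0.31 and -0.14 ± 0.63 (log2 fold change ± SE). On chromosome 17, Sft2d1 had 758 counts over the Ts65Dn and 8 over the 2N libraries (adjusted p = 0.206), and Tmem181a a log2 fold change of 1.07 (adjusted p = 0.234).

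The dosage index, the mean over the 76 tested triplicated chromosome 16 genes of log2 CPM centred on the 12 libraries, was 0.36, 0.27, 0.43, 0.16, -0.21, 0.58, -0.34 and 0.30 in Ts65Dn libraries 1 to 8, against -0.36, -0.14, -0.48 and -0.56 in 2N libraries 1 to 4. The means were 0.19 ± 0.31 in Ts65Dn (SD, n = 8) and -0.38 ± 0.18 in 2N (SD, n = 4). Their difference of 0.58 corresponds to 1.49-fold, given as a description with no test. Ts65Dn library 2 lay among the other Ts65Dn libraries, and libraries 5 and 7 overlapped the 2N range. Over the 30 most abundant genes, Ts65Dn libraries 2 and 5 reached 0.34 and 0.30, against a 2N range of -0.49 to -0.18, while library 7, with the fewest genes detected, stayed at -0.31. Relative to the mean of all tested genes, all 8 Ts65Dn libraries, from -0.076 to 0.44, lay above all 2N libraries, from -0.57 to -0.11, a gap that is narrow at its edge. Over the 29 tested chromosome 17 genes, the same index was 0.18 in library 2 and -0.36 in library 5. The 2N range there was -0.56 to -0.22, so library 5 lay within it, as did library 7 at -0.32. Thus libraries 2 and 5 sat with the Ts65Dn libraries in the abundant triplicated chromosome 16 genes and with the 2N libraries in small RNAs. For library 5 the placing differed with the set of triplicated genes. On the log2(TPM + 1) scale, where all tested genes shifted by a mean of -0.38, the chromosome 16 difference was -0.075, or 0.30 relative to that shift.

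**Figure D4:**
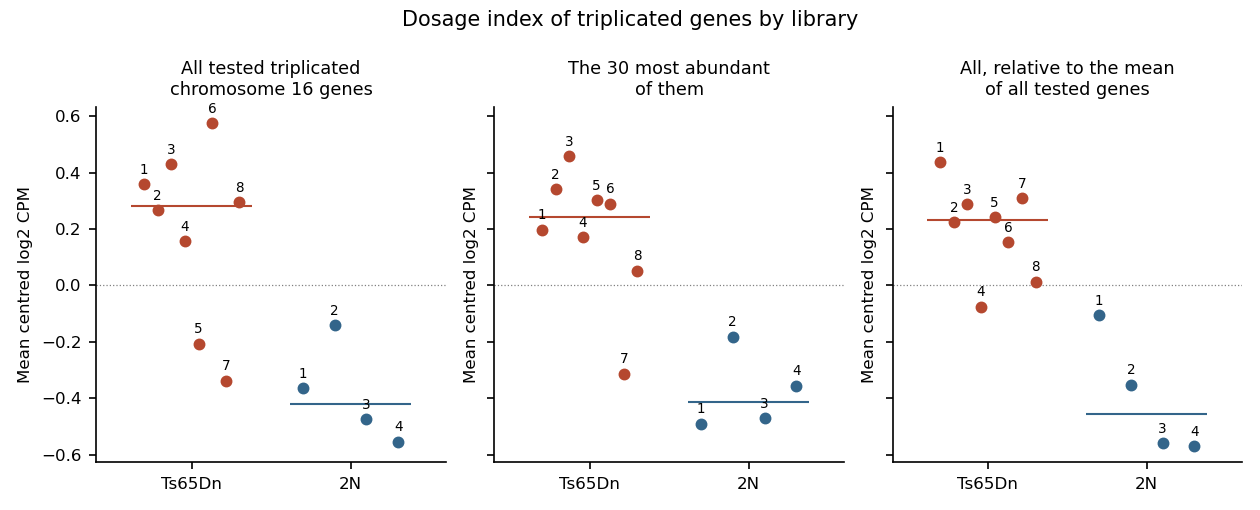
Dosage index of triplicated chromosome 16 genes by library in 3 forms (mean centred log2 CPM), with Ts65Dn left and 2N right, numbers giving the library and lines the medians. In the right panel all 8 Ts65Dn libraries, libraries 2 and 5 included, lie above the 4 2N libraries.

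Cholinergic genes showed no call in 22 tested, with 9 positive values and a median log2 fold change of -0.065. Their summed level was 1232 to 1737 CPM in Ts65Dn libraries, against 1444 to 1843 CPM in 2N libraries. Chat, Slc18a3, Slc5a7 and Ngfr were at 0.565, 19.5, 3.11 and 1.70 CPM in Ts65Dn library 7, of a sum of 1499 CPM. In 2N library 2 they were at 54.1, 29.3, 31.9 and 203 CPM, of 1843 CPM. The sum thus rests mostly on other listed genes and does not show the level of these. Of the 23 listed, Gbx2 was at 0 in all 12. The low-affinity neurotrophin receptor Ngfr had the smallest p of this list and of the neurotrophin list, with a lowest of 1.70, a median of 53.7 and a highest of 84.0 CPM in Ts65Dn, against 57.1, 203, 94.8 and 81.6 CPM in 2N libraries (log2 fold change -1.13, SE 0.55, unadjusted p = 0.0437, adjusted p = 0.503). The choline transporter Slc5a7 had -0.44 (SE 0.96), the vesicular acetylcholine transporter Slc18a3 -0.062 (SE 1.30) and Chat -0.71 (SE 1.04), none of them called. Chat and Slc18a3 overlap, so their reads cannot be told apart in full. Nkx2-1, a transcription factor of the medial ganglionic eminence, had 1.94 (unadjusted p = 0.179). In neurotrophin signalling, 14 of 30 were positive, with a median of -0.054 and -0.79 for Frs2 (unadjusted p = 0.108) next after Ngfr. Fewer cells of a type and less RNA per cell cannot be told apart in such libraries.

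The gene lists described next hold no call in the full comparison. In transmission, synaptic vesicle and release genes had 13 of 34 positive values and a median of -0.14, led by Syt1 and Snap25 at -0.62 and -0.74. Glutamate receptors had 20 of 37 and a median of 0.0057, with 0.55 for Gria1 (unadjusted p = 0.0221), an AMPA receptor subunit. No 2N library reached the Ts65Dn values of Gria1, a separation that held for 0.195% of all tested genes. GABA receptors had 5 of 15 and a median of -0.19, with 32 counts over the Ts65Dn and 0 over the 2N libraries for Gabrd (unadjusted p = 0.022). Postsynaptic scaffolds had 18 of 25 and a median of 0.22, with -0.64 for Dlg2 (unadjusted p = 0.0137). Secretory granule genes had 4 of 16 and a median of -0.16, with -0.69 for Scg2 (unadjusted p = 0.0088) and -0.50 for Cadps (unadjusted p = 0.0134). Each Ts65Dn library was below every 2N library for Scg2, which held for 0.411% of all tested genes. Sodium and potassium channels had 14 of 36 and a median of -0.14, with -0.73 for Kcna2 (unadjusted p = 0.0178) and -0.98 for Kcnab1 (unadjusted p = 0.0519). Calcium handling genes had 25 of 39 and a median of 0.073, with -0.58 for Calm3 (unadjusted p = 0.00926) and 0.98 for Cacnb1 (unadjusted p = 0.0147). Immediate early genes had 18 of 26 and a median of 0.42, with 21 counts over the Ts65Dn and 0 over the 2N libraries for Ier2 (unadjusted p = 0.0397) and -2.95 for Egr4 (unadjusted p = 0.0499).

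In energy and protein metabolism most medians were negative. Nuclear genes of the respiratory chain had 20 of 74 positive values and a median log2 fold change of -0.37, with -2.05 for Cycs (unadjusted p = 0.00265), cytochrome c, and -1.17 for Ndufa10 (unadjusted p = 0.00294), of complex I. Cycs was at a lowest of 3.79, a median of 11.6 and a highest of 43.5 CPM in Ts65Dn, against 97.0, 52.8, 60.3 and 111 CPM in 2N libraries, without overlap. A separation downward held for 0.411% of all tested genes. Cytosolic ribosomal proteins had 32 of 79 and a median of -0.34, with -3.84 for Rpl36a (unadjusted p = 0.00372) and -1.48 for Rpl13 (unadjusted p = 0.00395). Without Ts65Dn libraries 2 and 5 these 2 lists had medians of -0.58 and -0.58, with 2 and 4 genes called lower (against 0.225% of all tested genes in that fit) and none higher. Chaperones had 6 of 33 and a median of -0.34, with -0.60 for Hsp90aa1 (unadjusted p = 0.0119) and -1.35 for Hspd1 (unadjusted p = 0.0502). Proteasome and ubiquitin genes had 14 of 36 and a median of -0.20, led by Ubb and with -1.26 for Psmd8 (unadjusted p = 0.0771). Endosome and lysosome genes had 20 of 50 and a median of -0.15, with -0.88 for Atp6v1d (unadjusted p = 0.01) and -0.87 for Atp6v0d1 (unadjusted p = 0.0209), subunits of the proton pump. Autophagy genes had 18 of 30 and a median of 0.081, with -1.001 for Pik3r4 (unadjusted p = 0.0594) and -3.33 for Atg10 (unadjusted p = 0.106). Antioxidant genes had 14 of 29 and a median of -0.032, with 89 counts over the Ts65Dn and 0 over the 2N libraries for Nqo1 (unadjusted p = 0.0215) and -0.90 for Prdx6 (unadjusted p = 0.0503).

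In the cytoskeleton and transport, neurofilament and microtubule genes had 11 of 26 positive values and a median of -0.13, with -0.62 for Map6 (unadjusted p = 0.0103) and -0.40 for Map1b (unadjusted p = 0.0132). Motors of axonal transport had 18 of 36 and a median of -0.018, led by Kif3a and with -0.51 for Kif5b (unadjusted p = 0.0535). Genes of amyloid and tau processing had 14 of 29 and a median of -0.0078, with 0.60 for Aplp1 (unadjusted p = 0.0138) and App. Choline, phospholipid and methyl metabolism, the pathway of the supplement, had 16 of 39 and a median of -0.16. None had an unadjusted p under 0.05, with -1.30 for Mat2b (unadjusted p = 0.094). DNA and histone methylation genes had 27 of 49 and a median of 0.060, with 0.70 for Setd1b (unadjusted p = 0.0277) and 0.41 for Kmt2d (unadjusted p = 0.0359), both histone H3 methyltransferases. Splicing regulators had 11 of 28 and a median of -0.11, with 0.88 for Rbfox3 (unadjusted p = 0.0253) and 1.07 for Celf1 (unadjusted p = 0.0277). Interferon genes, whose receptors lie on the triplicated segment, had 17 of 22 and a median of 0.42, with 13 counts over the Ts65Dn and 0 over the 2N libraries for Mx2 (unadjusted p = 0.0549) and 275 counts over the Ts65Dn and 4 over the 2N libraries for Oasl2 (unadjusted p = 0.0671). The forebrain kinase Camk2a was at 0.92 (adjusted p = 0.579) and the actin-binding Enc1 at -0.14 (adjusted p = 0.995).

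**Figure D5:**
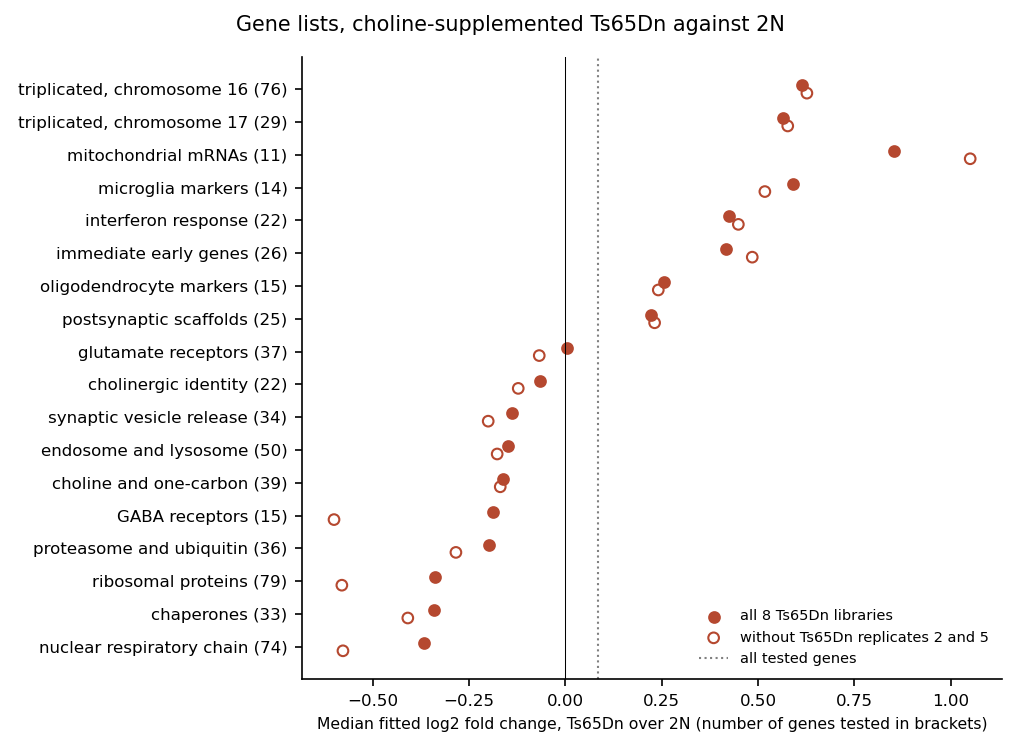
Median fitted log2 fold change, Ts65Dn over 2N, of 18 gene lists with the number of tested genes in brackets (filled, all 8 Ts65Dn libraries; open, without libraries 2 and 5; dotted line, all tested genes). Triplicated genes and mitochondrial mRNAs lie at the right, and nuclear respiratory chain genes, chaperones and ribosomal proteins at the left.

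Marker lists of other cells were summed in each library. Oligodendrocyte markers had 11 of 15 positive values, a median log2 fold change of 0.26 and summed levels of 2995 to 4164 CPM in Ts65Dn libraries, against 2651 to 3562 CPM in 2N libraries. Of these, Mag, a myelin glycoprotein, had a lowest of 106, a median of 153 and a highest of 196 CPM in Ts65Dn, against 73.4, 46.0, 87.8 and 42.5 CPM in 2N libraries, with no overlap (log2 fold change 1.24, SE 0.40, unadjusted p = 0.00305, adjusted p = 0.279). Such a separation upward held for 0.195% of all tested genes. Trf, transferrin, had 0.83. Microglia markers had 10 of 14, a median of 0.59 and sums of 109 to 236 CPM in Ts65Dn libraries, against 69.6 to 127 CPM in 2N libraries, with 198 counts over the Ts65Dn and 2 over the 2N libraries for Fcrls (unadjusted p = 0.0137) and 1.200 for Ctss (unadjusted p = 0.0348). Astrocyte markers had 8 of 15, a median of 0.054 and sums of 2726 to 3807 CPM in Ts65Dn libraries, against 2972 to 3110.1 CPM in 2N libraries, with -0.30 for Aldoc (unadjusted p = 0.292). Precursors of oligodendrocytes had 5 of 8 and a median of 0.075, with 1.04 for Cspg4 (unadjusted p = 0.0423) and 0.32 for Bcas1 (unadjusted p = 0.271). Vessel markers had 10 of 15 and a median of 0.21, with 1.36 for Vwf (unadjusted p = 0.0397) and 139 counts over the Ts65Dn and 3 over the 2N libraries for Kcnj8 (unadjusted p = 0.111). Ependyma and choroid markers, 4 of 11 at 0 in all 12 libraries, summed to 12.6 to 75.6 CPM in Ts65Dn libraries, against 8.07 to 27.9 CPM in 2N libraries, with 1.41 for Clic6 (unadjusted p = 0.166) and 1.08 for Kl (unadjusted p = 0.589). Blood markers, at 0 in 2N library 1, summed to 0.632 to 16.6 CPM in Ts65Dn libraries, against 0 to 5.10 CPM in 2N libraries, with 1.97 for Alas2 (unadjusted p = 0.277) and 56 counts over the Ts65Dn and 9 over the 2N libraries for Hba-a2 (unadjusted p = 0.402).

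Neuronal marker lists gave sums of 3862 to 6609 CPM in Ts65Dn libraries, against 5576 to 6827 CPM in 2N libraries for neurons in general, led by Syt1 and Snap25 (5 of 13 positive values, median log2 fold change -0.18). GABAergic markers had 4 of 11 positive values and a median of -0.079, with 27 counts over the Ts65Dn and 0 over the 2N libraries for Vip (unadjusted p = 0.0261) and 0.50 for Slc32a1 (unadjusted p = 0.13). These 11 markers summed to 1391 to 1867 CPM in Ts65Dn libraries, against 1501 to 1943 CPM in 2N libraries. Chat alone was at 0.565 to 53.6 CPM in Ts65Dn and 0.563 to 54.1 CPM in 2N libraries. Glutamatergic markers had 4 of 9 and a median of -0.034, with 80 counts over the Ts65Dn and 2 over the 2N libraries for Neurod2 (unadjusted p = 0.0226) and -1.55 for Sv2b (unadjusted p = 0.0505). They summed to 110 to 635 CPM in Ts65Dn libraries, against 106 to 333 CPM in 2N libraries. Markers of striatal projection neurons, led by Penk and Pdyn, had 6 of 12, a median of -0.095 and sums of 265 to 459 CPM in Ts65Dn libraries, against 330.3 to 675 CPM in 2N libraries. Pdyn had 1 count over the Ts65Dn and 185 over the 2N libraries, all in Ts65Dn library 3 and in 2N libraries 2 and 4. No marker list but that of neurons in general held a gene called without Ts65Dn libraries 2 and 5, where 2 of 13 were called lower (against 0.225% of all tested genes). The part of these other cells in the results was not tested.

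Long noncoding RNAs of neurons had 15 of 21 positive values and a median log2 fold change of 0.22, with no call. Malat1, a nuclear RNA of speckles, had a lowest of 7256, a median of 13674 and a highest of 19286 CPM in Ts65Dn, against 10977, 9714, 11549 and 6482 CPM in 2N libraries (log2 fold change 0.57, SE 0.18, unadjusted p = 0.00344, adjusted p = 0.29). Without Ts65Dn libraries 2 and 5, a choice made after seeing the data, it had 0.70 (adjusted p = 0.0267), given as a description. Snhg11 had 0.60 (unadjusted p = 0.00368). Meg3, an imprinted RNA, had 0.016 (SE 0.18). Of 20 tested microRNA genes, 6 had positive values and none was called. Mir8101 and Mir8104, inside Hdac5 and Ppm1h, had no count in Ts65Dn libraries, and 1.65, 2.60, 11.6 and 6.65 and 16.2, 0, 0 and 0 CPM in 2N libraries (adjusted p = 0.107 and 0.243).

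Mir6236 was the only gene for which edgeR called a difference of the genotype effect between the diets (0.00501% of those tested). DESeq2 called 268 such genes, limma-voom 0, the fit with the animal number as a factor 12 and the fit without Ts65Dn libraries 2 and 5 24. On the supplemented diet Mir6236 had a lowest of 253, a median of 807 and a highest of 1799 CPM in Ts65Dn, against 2407, 1128, 1561 and 1177 CPM in 2N libraries. The log2 fold change there was -0.72 (SE 0.33, unadjusted p = 0.034, adjusted p = 0.471) and was not called. On the control diet it had 702 to 2789.5 CPM in Ts65Dn, against 163 to 604 CPM in 2N libraries. The genotype difference was 2.34 (adjusted p = 0.000106), and the interaction, supplemented minus control, was -3.06 (adjusted p = 0.000705). Control-diet mice gave 58 genes called higher and 9 lower (0.29% and 0.0451%, 0.336% together). None of the 36 supplemented-diet calls was called in the interaction, which does not show that the diets act alike. Among the control-diet libraries, Ts65Dn library 3 exceeded all 4 supplemented 2N libraries in 31 of the 33 genes that rose here. The other 5 Ts65Dn libraries did so in 16 to 24 and the 6 2N libraries in 1 to 18. The 33 genes were called against these same 4 libraries, many with few counts or none there, so low levels can exceed them. No share of all tested genes is given, so the counts do not show a genotype effect on the control diet.

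The animal numbers begin with 14, 15, 16 or 17, and what these mean is not stated. With this number as a factor, 38 genes were called higher (0.19%) and 2 lower (0.01%), 0.2% together, and 34 of the 36 calls were shared, with Bc1 at 7.65 (adjusted p = 0.013). Within number 16, Ts65Dn libraries 6 and 7 against 2N libraries 3 and 4, the log2 fold change was 8.75 for Bc1, 7.13 for Snord15a, 9.55 for Snord55 and 1.67 for mt-Rnr2. Within number 15, Ts65Dn libraries 3 and 4 were high and 2 and 5 low in Bc1, beside 2N library 2 at 21.4 CPM. Number 14 holds 1 library of each genotype and number 17 only Ts65Dn library 8.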

How the data were processed

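Per the labels' protocols, RNA was extracted with a micro kit and made into stranded total RNA libraries, read for 50 cycles from 1 end. The authors deposited expected counts per gene and TPM, per the file headers. Per the submitters' processing notes, Trimmomatic 0.39, STAR and RSEM were used, and the builds GRCm39 and mm10 are named without a role, so coordinates are those of GENCODE M21 (GRCm38). Of 55414 identifiers, 52081 matched GENCODE M21.

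Expected counts were rounded to whole numbers and filtered with edgeR's filterByExpr (minimum count 10). The main test was edgeR 4.0.16's quasi-likelihood test with TMM scaling over all 4 groups of 24 libraries, with Benjamini-Hochberg adjustment over 19967 genes and a threshold of 0.05. It was also run on simulated counts, where only median fold changes had to be recovered. Those counts were independent between genes and held no split within a group, so the run does not give the rate of false calls here. The biological coefficient of variation was 1.40. DESeq2 1.42.0, limma 3.58.1 and other alternatives are given in the closing section. Library measures and summed families were compared with exact permutation tests. Folds against a group at 0 use 3 counts over that group, and such bounds cover counting error only. The index on TPM used log2(TPM + 1).

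Named genes were the called genes with the smallest p per direction (up to 15 protein-coding, or the next smallest p up to 6, and up to 10 noncoding, or up to 4), up to 4 called members of each of 41 lists or else the 2 with the smallest p, and a fixed set. Unnamed models and pseudogenes were counted only, and some genes that the rule names are not reported here. Tatdn1, Rpph1, Rps3, Rpl5, Snord15b, Brwd1, Calm2, Apoe, Actg1 and the host genes were added after their values were seen. The members and lists were chosen with earlier results of these data known.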

Additional observations from a re-analysis of the deposited data

Results flagged for a closer look

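Each named gene and library measure was checked in both genotypes for a library whose gap to its nearest neighbour filled most of the group's range by Dixon's criterion. Of 236 groups checked, 26 held such a library, and chance flags about 1 in 20. Values are log2 CPM with a prior count. Ts65Dn library 1 stood apart from its group in Mx2 (0.96) and Alas2 (-2.25). Ts65Dn library 3 stood apart from its group in Pdyn (-1.62). Ts65Dn library 5 stood apart from its group in Snora74a (-2.25), Malat1 (12.83), Vwf (3.83) and Clic6 (-2.25). Ts65Dn library 7 stood apart from its group in Ndufa10 (3.69), Ngfr (0.93), Pik3r4 (1.13) and Psmd8 (0.93). 2N library 1 stood apart from its group in Kif3a (8.38), Mir8104 (4.04), Rpl36a (-2.25), Hspd1 (4.57) and Slc5a7 (1.55). 2N library 2 stood apart from its group in the longer Rmrp model (4.86), mt-Atp6 (4.46), Oasl2 (-0.68), Kcnj8 (-0.94) and Hba-a2 (0.20). 2N library 3 stood apart from its group in Sft2d1 (-0.058), Tmem181a (6.33), Calm3 (8.73) and Fcrls (-1.33). 2N library 4 stood apart from its group in Rprl2 (1.46). The genotype effect on Mir6236 differed between the diets by an interaction of -3.06 on the log2 scale, edgeR adjusted p = 0.000705, and its levels stand in the report.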

How the results depend on the processing

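The 33 genes called higher and 3 called lower depended on the processing. DESeq2 called 373 and 36, and limma-voom 24 and 31. Of the limma-voom calls, 1 was among the 36, the shorter Rmrp model. The fit without a filter on low counts called 169 and 31, and the 2 groups alone 88 and 3. An adjusted p under 0.1 gave 51 and 6. Leaving the mitochondrial rRNAs out of the table gave 32 and 2, of which 34 were among the 36. The mitochondrial rRNA share as a covariate gave 0 and 0. 2 alternatives were chosen after seeing the data: without Ts65Dn libraries 2 and 5 the counts were 106 and 44, and without the libraries with Chat under 1 CPM (Ts65Dn 7 and 2N 3) 0 and 0, with 1944 at an unadjusted p under 0.05. Leaving out 1 library at a time gave 0 to 64 higher and 0 to 13 lower. For Ts65Dn libraries 1 to 8 the calls higher were 15, 64, 27, 34, 58, 13, 26 and 18, and for 2N libraries 1 to 4 0, 3, 0 and 1. The interaction count of 1 was 268 with DESeq2 Wald test, 0 with limma-voom with quality weights, 125 without a filter on low counts, 12 with ID prefix as a factor, 0 with mitochondrial rRNA share as a covariate, 2 with mitochondrial rRNAs left out, 24 without Ts65Dn libraries 2 and 5, 2 with adjusted p under 0.1, and 1 to 5 leaving out 1 library. The control-diet count of 67 was 326 with DESeq2 Wald test, 3 with limma-voom with quality weights, 256 without a filter on low counts, 28 with ID prefix as a factor, 162 with mitochondrial rRNA share as a covariate, 116 with adjusted p under 0.1, and 41 to 87 leaving out 1 library. The dosage index was 0.58, 0.52 to 0.66 leaving out 1 library, and turned to -0.075 on log2(TPM + 1). The difference in genes detected, -45.8, turned to 771 and 615 under the 2 added alternatives and ranged from -865 to 710.2 leaving out 1 library. The mitochondrial rRNA share difference of 10.4 percentage points passed only without Ts65Dn library 2 or without 2 and 5 (14.2) and ranged from 8.63 to 12.3. The fitted log2 fold change changed sign in the following cases. For mt-Rnr2, which was called, and the others, which were not, the values were mt-Rnr2 -0.056, mt-Atp6 -1.14, Vwf -0.045, mt-Rnr1 -0.044, Rpl5 0.0040, Chat 0.64, Slc5a7 1.52, Meg3 -0.036 and Slc18a3 0.86 with mitochondrial rRNA share as a covariate, Sod1 -0.27, Meg3 -0.15 and Slc18a3 0.61 within ID prefix 16, and Rcan1 0.036 without Ts65Dn library 7 and 2N library 3. Leaving out 1 library, Enc1 -0.36 to 0.019, Kl -0.41 to 3.85, Meg3 -0.079 to 0.19, Rcan1 -0.33 to 0.020 and Slc18a3 -0.32 to 0.86 spanned 0, and Slc18a3 was -0.45 without Ts65Dn library 7 and 2N library 3. The cause of these changes was not tested. No paired analysis was possible because the labels give animal numbers that no 2 groups share. With 4 2N libraries, in which many small RNAs had few counts or none, the number of mice and the depth limit the precision.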
